A study of Mus musculus with 6 samples.

Results

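Imprinted genes are genes of which mainly 1 parental copy is expressed, for most of them because a DNA methylation mark set in the egg or the sperm marks the copies apart. Most lie in clusters, where a control region and often a long non-coding RNA keep the neighbouring genes silent on the other copy. As a class they are known for growth control before and after birth: many paternally expressed genes promote growth and many maternally expressed genes restrain it, and a set of them is known to be high in growing fetal and newborn mouse tissues and to decline with age. In cartilage, Cdkn1c, an inhibitor of cyclin-dependent kinases, is needed in the mouse for growth plate chondrocytes to leave the cell cycle. Polycomb repressive complex 2, whose catalytic subunit is Ezh2, methylates lysine 27 of histone H3 and is known to contribute to silencing at several imprinted clusters in mouse embryo and placenta.

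A list of 35 imprinted mouse genes, named by symbol, was looked up in the deposited gene table of 23358 entries, and all 35 were present. By textbook knowledge 12 are maternally expressed, 22 are paternally expressed, and Gnas gives transcripts of both kinds. Counts were found for 34 of the 35, and these 34 passed the filter on low counts that left 16280 genes for testing. Snrpn was listed at 0 in all 6 libraries. The libraries came from immature mouse chondrocytes of the strain given as C57BL/6 - mix, taken from joint cartilage of the hind limb at post-natal day 5. Both genotypes were cultured as micromasses, high-density spots in which chondrocytes deposit matrix, with ascorbic acid, β-glycerol phosphate and a supplement of insulin, selenium and transferrin in the medium. Ezh2-deficient cultures (titled Ezh2_cKO, with no driver of the deletion named) and wildtype cultures each gave 1 library at day 3, day 7 and day 14. The labels do not say whether the 6 libraries came from separate animals or cultures, so p-values measure only the spread between these libraries. The reads were not split by parental copy: the values are total RNA of each gene and do not show whether imprinting was kept or lost.

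The 6 libraries held from 51985214 to 79323302 counts. Levels are given as counts per 1000000 (CPM) with library sizes scaled by edgeR's TMM factors, and values of 3 days are written in the order day 3, day 7, day 14. Ezh2 itself, as a check of the labels, measured 14.7, 23.0 and 17.6 CPM in Ezh2-deficient cultures, against 24.7, 40.2 and 27.9 CPM in wildtype cultures, with the Ezh2-deficient library lower on all 3 days (log2 fold change -0.74 ± 0.08 SE, edgeR adjusted p = 0.0729, DESeq2 adjusted p = 6.01e-07). Cartilage markers (9 of 10 listed symbols were in the table, none of them at 0 in any library) summed to 112638, 47100 and 17911 CPM in Ezh2-deficient cultures, against 116342, 67860 and 31826 CPM in wildtype cultures. Bone markers (6 of 6) summed to 1321, 8231 and 95476 CPM in Ezh2-deficient cultures, against 799, 6748 and 44231 CPM in wildtype cultures.

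The 35 genes together took 2.21%, 1.499% and 0.647% of all counts in Ezh2-deficient cultures at days 3, 7 and 14, against 1.95%, 1.48% and 0.711% in wildtype cultures. H19, a maternally expressed long non-coding RNA, alone made up 1.21%, 0.613% and 0.235% of all counts in Ezh2-deficient cultures, against 1.11%, 0.554% and 0.217% in wildtype cultures. Levels of most of these genes followed the day of culture. Of the 34 tested, 20 were lower and 5 higher at day 14 than at day 3 (edgeR quasi-likelihood F test, adjusted p under 0.05), where 22.4% of all 16280 genes were lower and 23.2% were higher. Their median log2 fold change was -0.98, beside -0.02 over all genes tested. All 25 changed in the same direction in both genotypes, which the call itself favours, since the 2 genotypes stood in for replicates of a day. Of the 12 maternally expressed genes 10 fell and 1 rose (median log2 fold change -1.83), and of the 21 tested paternally expressed genes 10 fell and 4 rose (median -0.65). DESeq2 and limma-voom gave the same counts of 20 and 5. Without the day 7 pair 22 were called, where 34.5% of 15760 genes were. Over the same days the cartilage marker sum was lower and the bone marker sum higher at each later day. Macrophage markers (5 of 6 listed symbols in the table, none at 0) summed to 93.5, 1281 and 2423 CPM in Ezh2-deficient cultures, against 130, 1245 and 1702 CPM in wildtype cultures. The part of these marker levels in the decline of the imprinted genes was not tested. In bulk libraries fewer cells of a type and less RNA per cell cannot be told apart.

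**Figure D1:**
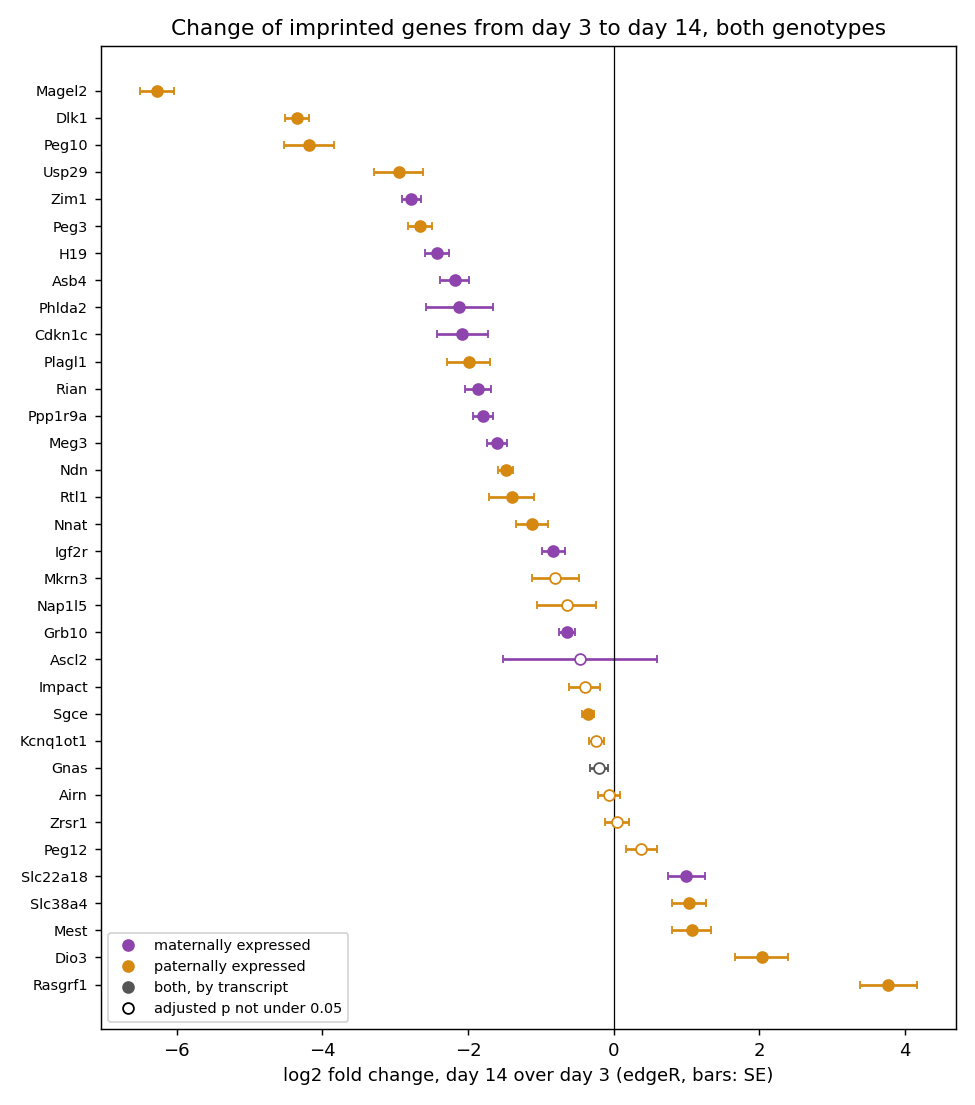
Log2 fold change of each of the 34 tested imprinted genes at day 14 over day 3 (x axis; points are edgeR estimates from all 6 libraries, bars their SE), coloured by the expressed parental copy, with open points where the adjusted p was not under 0.05. Of the 34, 20 filled points lie left of 0 and 5 right of it, from -6.28 for Magel2 to 3.77 for Rasgrf1.

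Per unit of length, H19 stood first among the 35 in mean deposited RPKM, at 3765, 1884 and 722 RPKM in Ezh2-deficient cultures, against 3502, 1713 and 670.4 RPKM in wildtype cultures. Its lowest library was above the highest library of every other member except Mest. Mest followed with 189, 690 and 268 RPKM in Ezh2-deficient cultures, against 97.9, 489 and 320.2 RPKM in wildtype cultures. Cdkn1c, Gnas, Peg3 and Grb10 came next, with mean RPKM of 174, 145, 140.0 and 119, and their ranges over the libraries overlapped. At the other end Phlda2, Usp29, Mkrn3, Nap1l5 and Ascl2 had mean RPKM of 0.513, 0.489, 0.337, 0.254 and 0.111.

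Among the maternally expressed genes the 3 long non-coding RNAs all fell. H19 (chr7:142575532-142578146 in the mm10 build, as are all coordinates of the table) measured 12938, 5605 and 2461 CPM in Ezh2-deficient cultures, against 11822, 5142 and 2146 CPM in wildtype cultures. Both day 14 libraries were far below both day 3 libraries, and the Ezh2-deficient library was slightly the higher on each day (day 14 over day 3, log2 fold change -2.43 ± 0.16 SE, edgeR adjusted p = 0.00036). Meg3 (chr12:109540996-109571729) measured 769, 488 and 229 CPM in Ezh2-deficient cultures, against 814, 687 and 296 CPM in wildtype cultures and fell (log2 fold change -1.61 ± 0.14 SE, edgeR adjusted p = 0.000726). Rian (chr12:109603945-109661711), which hosts small nucleolar RNAs and lies downstream of Meg3, measured 583, 367 and 126 CPM in Ezh2-deficient cultures, against 657, 547 and 228 CPM in wildtype cultures and also fell (-1.87 ± 0.18 SE, edgeR adjusted p = 0.00104). In both RNAs the wildtype library was the higher of the pair on all 3 days.

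The maternally expressed growth restrainers fell to different extents. Cdkn1c measured 784, 348 and 127 CPM in Ezh2-deficient cultures, against 488, 573 and 182 CPM in wildtype cultures, with a log2 fold change of -2.08 ± 0.35 SE (edgeR adjusted p = 0.00661). Its wildtype level was not at its maximum at day 3 but at day 7, while the Ezh2-deficient level was highest at day 3. Igf2r, the receptor that carries the growth factor Igf2 to lysosomes for breakdown, measured 705, 518 and 326 CPM in Ezh2-deficient cultures, against 617, 556 and 423 CPM in wildtype cultures (-0.83 ± 0.16 SE, edgeR adjusted p = 0.00956). Grb10, an adaptor that dampens signalling of the insulin and IGF receptors, measured 856, 795 and 578 CPM in Ezh2-deficient cultures, against 944, 805 and 569.8 CPM in wildtype cultures (-0.65 ± 0.11 SE, edgeR adjusted p = 0.00663). Grb10 had the smallest of the maternal declines that passed. Phlda2, known in the mouse for restraining placental growth, lay between 0.146 and 0.849 CPM in all libraries and also passed (-2.12 ± 0.46 SE, edgeR adjusted p = 0.0149).

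Of the other maternally expressed members 3 fell and 1 rose. Zim1, a zinc finger gene beside Peg3, measured 259.6, 140 and 37.2 CPM in Ezh2-deficient cultures, against 202, 146 and 30.0 CPM in wildtype cultures (-2.78 ± 0.14 SE, edgeR adjusted p = 0.000178). Asb4, an adaptor of ubiquitin ligases, measured 43.0, 17.4 and 7.7 CPM in Ezh2-deficient cultures, against 28.9, 18.9 and 7.98 CPM in wildtype cultures (-2.18 ± 0.20 SE, edgeR adjusted p = 0.000926). Ppp1r9a, an actin-binding protein that targets a phosphatase, measured 36.0, 17.1 and 9.78 CPM in Ezh2-deficient cultures, against 33.6, 21.2 and 10.3 CPM in wildtype cultures (-1.80 ± 0.14 SE, edgeR adjusted p = 0.000519). All 3 were lower at each step from day 3 to day 7 to day 14 in both genotypes. Slc22a18, a membrane transporter of the Cdkn1c domain, went the other way, with 1.26, 2.67 and 2.23 CPM in Ezh2-deficient cultures, against 1.36, 4.14 and 3.11 CPM in wildtype cultures. Its rise (1.00 ± 0.25 SE, edgeR adjusted p = 0.0249) did not pass without the day 7 pair (adjusted p = 0.0641). Ascl2, a transcription factor of the same domain, lay between 0 and 0.425 CPM and did not pass; a count of 0 in its Ezh2-deficient day 7 library allows a level of up to 0.0763 CPM (3 fragments).

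**Figure D2:**
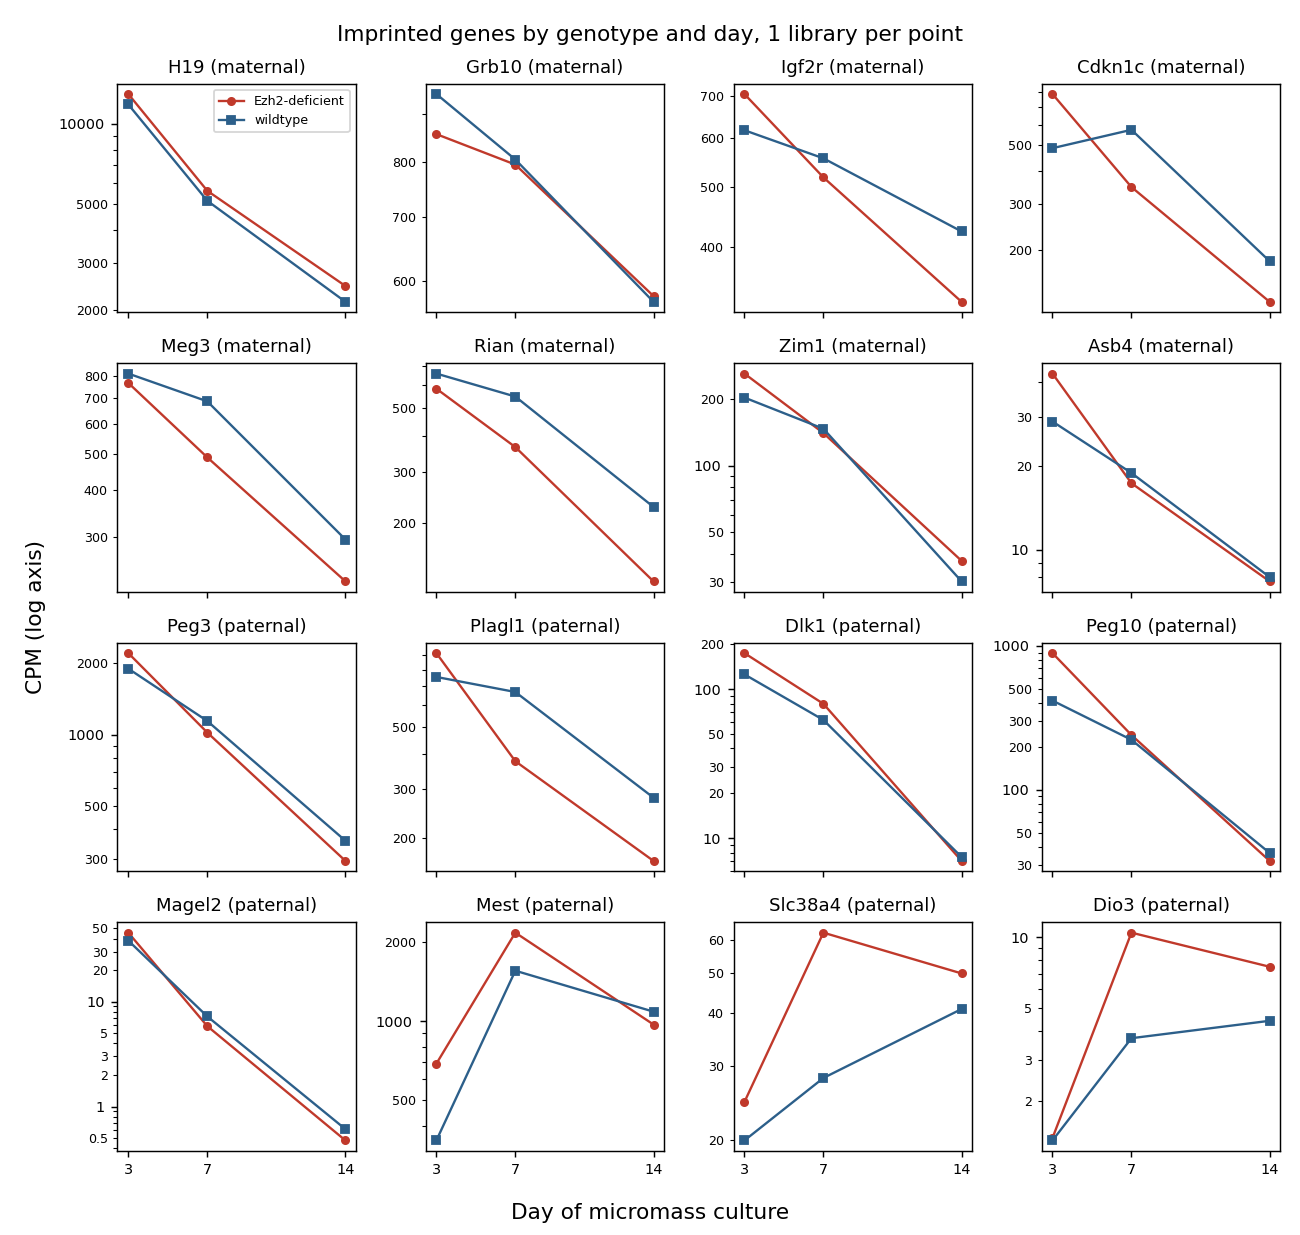
CPM on a log axis (y) against day of culture (x) for 16 imprinted genes, each point 1 library, circles for Ezh2-deficient and squares for wildtype cultures. The first 13 panels decline from day 3 to day 14 in both genotypes, while Mest, Slc38a4 and Dio3 end above their day 3 level.

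Paternally expressed genes showed the steepest declines of the set. Magel2, a MAGE family protein that works with ubiquitin ligases, measured 45.5, 5.85 and 0.474 CPM in Ezh2-deficient cultures, against 38.2, 7.23 and 0.608 CPM in wildtype cultures. It had the largest fall of all 34 (-6.28 ± 0.23 SE, edgeR adjusted p = 0.000138), and at day 14 both libraries were under 1 CPM. Dlk1, a membrane protein with EGF-like repeats known as an inhibitor of fat cell differentiation, measured 175, 79.8 and 7.04 CPM in Ezh2-deficient cultures, against 126, 62.2 and 7.48 CPM in wildtype cultures (-4.35 ± 0.17 SE, edgeR adjusted p = 0.000147). Peg10, which derives from a retrotransposon, measured 892, 240.3 and 32.1 CPM in Ezh2-deficient cultures, against 417, 223 and 36.4 CPM in wildtype cultures (-4.18 ± 0.34 SE, edgeR adjusted p = 0.000641). In each of these 3 genes the ranges of the days did not overlap.

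Peg3, a zinc finger gene of chr7 (chr7:6705960-6730419), measured 2207, 1023 and 295 CPM in Ezh2-deficient cultures, against 1899, 1144 and 358 CPM in wildtype cultures (-2.66 ± 0.17 SE, edgeR adjusted p = 0.000301). Usp29, of the family of deubiquitinating enzymes, measured 7.18, 4.45 and 0.584 CPM in Ezh2-deficient cultures, against 7.52, 5.39 and 1.41 CPM in wildtype cultures (-2.95 ± 0.34 SE, edgeR adjusted p = 0.00176). Plagl1, a zinc finger transcription factor also known as Zac1, measured 917, 376 and 165 CPM in Ezh2-deficient cultures, against 753, 665 and 278 CPM in wildtype cultures (-1.99 ± 0.29 SE, edgeR adjusted p = 0.00419). Plagl1 kept most of its day 3 level until day 7 in the wildtype pair of libraries and not in the Ezh2-deficient pair. Ndn, another MAGE family gene, measured 132, 81.6 and 43.5 CPM in Ezh2-deficient cultures, against 120.4, 89.1 and 46.7 CPM in wildtype cultures (-1.49 ± 0.10 SE, edgeR adjusted p = 0.000349). Its genotypes lay close together at every day.

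Smaller declines passed for Nnat, Rtl1 and Sgce. Nnat, a small membrane protein encoded inside an intron of Blcap, measured 5.49, 3.3 and 2.19 CPM in Ezh2-deficient cultures, against 4.49, 2.69 and 2.36 CPM in wildtype cultures (-1.12 ± 0.22 SE, edgeR adjusted p = 0.0106). Rtl1, a retrotransposon-derived gene known for its role in mouse placenta, measured 5.89, 3.79 and 1.57 CPM in Ezh2-deficient cultures, against 4.03, 4.4 and 2.2 CPM in wildtype cultures (-1.40 ± 0.31 SE, edgeR adjusted p = 0.0153). Sgce, a sarcoglycan of the cell membrane, measured 48.0, 53.9 and 39.5 CPM in Ezh2-deficient cultures, against 48.4, 50.5 and 36.2 CPM in wildtype cultures. Its change was slight (-0.35 ± 0.09 SE, edgeR adjusted p = 0.0221) and did not pass without the day 7 pair (adjusted p = 0.0864).

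Of the paternally expressed genes 4 rose. Mest, a protein of the endoplasmic reticulum with a hydrolase fold, measured 689, 2179 and 972 CPM in Ezh2-deficient cultures, against 351, 1559.8 and 1088 CPM in wildtype cultures. Day 7 was its highest day in both genotypes, and its day 14 rise over day 3 (1.07 ± 0.27 SE, edgeR adjusted p = 0.025) did not pass without the day 7 pair (adjusted p = 0.0534). Rasgrf1, an exchange factor that activates Ras, measured 0.296, 3.66 and 3.94 CPM in Ezh2-deficient cultures, against 0.667, 3.89 and 9.5 CPM in wildtype cultures and had the largest rise (3.77 ± 0.39 SE, edgeR adjusted p = 0.00129). Both day 3 libraries were under 1 CPM. Dio3, the deiodinase that inactivates thyroid hormone, measured 1.4, 10.4 and 7.48 CPM in Ezh2-deficient cultures, against 1.36, 3.72 and 4.41 CPM in wildtype cultures (2.03 ± 0.37 SE, edgeR adjusted p = 0.00832). Slc38a4, a neutral amino acid transporter, measured 24.6, 62.4 and 49.8 CPM in Ezh2-deficient cultures, against 19.9, 28.1 and 41.0 CPM in wildtype cultures (1.03 ± 0.23 SE, edgeR adjusted p = 0.0162). For these last 3 every day 7 and day 14 library was above both day 3 libraries.

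The remaining 9 tested genes did not pass between day 14 and day 3. Gnas, the stimulatory G protein alpha subunit and its alternative transcripts counted as 1 entry, measured 1145, 1035 and 1052 CPM in Ezh2-deficient cultures, against 1163, 1131 and 955 CPM in wildtype cultures. Impact, an inhibitor of the stress kinase Gcn2, measured 136, 116 and 76.6 CPM in Ezh2-deficient cultures, against 137, 121 and 136 CPM in wildtype cultures. Impact stood between 116 and 137 CPM in 5 libraries and was lower in the Ezh2-deficient day 14 library alone. Kcnq1ot1, the long non-coding RNA that silences genes of its domain in cis, measured 105, 98.1 and 79.4 CPM in Ezh2-deficient cultures, against 88.4, 95.7 and 83.5 CPM in wildtype cultures. Airn, the antisense RNA that silences Igf2r in cis, measured 10.5, 11.6 and 8.72 CPM in Ezh2-deficient cultures, against 9.98, 13.1 and 11.1 CPM in wildtype cultures. Of the protein-coding members in the same domains, Cdkn1c, Phlda2 and Igf2r passed as lower, Slc22a18 passed as higher and Ascl2 did not pass. Zrsr1, a retrogene related to a splicing factor, measured 15.7, 14.4 and 19.7 CPM in Ezh2-deficient cultures, against 20.4, 16.8 and 17.2 CPM in wildtype cultures. Peg12, of the Frat family of Wnt pathway proteins, measured 3.63, 5.54 and 4.96 CPM in Ezh2-deficient cultures, against 4.25, 4.45 and 5.28 CPM in wildtype cultures. Mkrn3, a RING finger gene, measured 1.21, 1.22 and 0.803 CPM in Ezh2-deficient cultures, against 1.24, 1.25 and 0.608 CPM in wildtype cultures. Nap1l5, related to nucleosome assembly proteins, lay between 0.340 and 1.05 CPM, and Ascl2 completes the 9. Whether the libraries kept strand is not given in the sources used here. Overlapping pairs of entries, such as Airn and Igf2r, Zrsr1 and Commd1, Nap1l5 and Herc3, Nnat and Blcap, Kcnq1ot1 and Kcnq1, and Gnas and Nespas, may therefore share or lose reads.

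Snrpn, a component of the splicing machinery, shares its locus with Snurf, which had from 0 to 4 counts in a library. A count of 0 allows from 0.0763 to 0.114 CPM at these depths, on counting error alone. How reads that overlap both entries were treated is not given in the sources used here, and the 0 is given as listed.

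Neighbouring genes of a cluster were also set side by side; the differences between genes were not tested. Peg10 and Sgce, both paternally expressed, lie head to head with 102 bases between the table's entries, yet their log2 fold changes from day 3 to day 14 were -4.18 ± 0.34 and -0.35 ± 0.09 (SE). The ratio of Peg10 to Sgce in RPKM was 5.23, 1.26 and 0.229 in Ezh2-deficient cultures, against 2.42, 1.24 and 0.283 in wildtype cultures. Peg3 and Usp29, also head to head, with 164 bases between their RefSeq starts, both fell. Zim1, the maternally expressed neighbour, had a log2 fold change of -2.78 ± 0.14 SE, beside -2.66 ± 0.17 SE for Peg3, and the RPKM ratio of Zim1 to Peg3 stayed between 0.159 and 0.259 over the 6 libraries. On chr7, Ndn (chr7:62348277-62349927) and Magel2 (chr7:62376979-62381640) are neighbours, with log2 fold changes of -6.28 for Magel2 and -1.49 for Ndn. In the Dlk1 domain of chr12 the paternal Dlk1 fell the most, Meg3, Rian and Rtl1 fell less, and Dio3 rose.

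**Figure D3:**
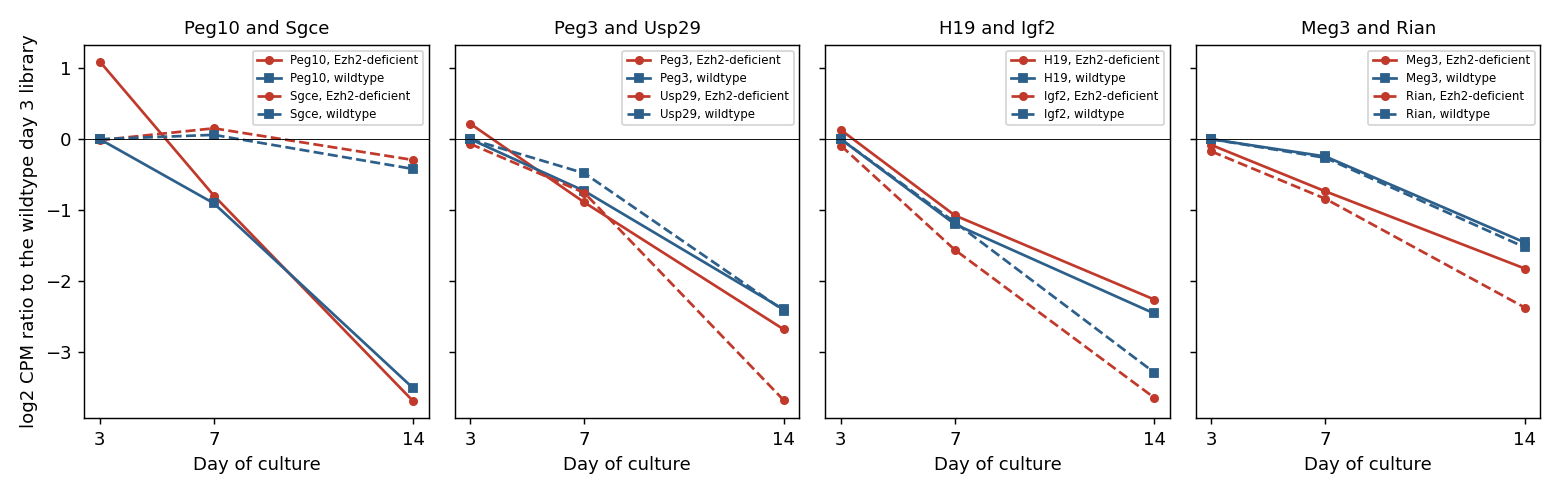
Log2 ratio of each library's CPM to that of the wildtype day 3 library (y) against day (x) for 4 pairs of neighbouring genes, with solid lines for the first gene of the title and dashed for the other, circles for Ezh2-deficient and squares for wildtype. Peg10 drops while Sgce stays near 0, H19 and Igf2 drop together with H19 above Igf2 at day 14 in each genotype, and Rian ends lower in the Ezh2-deficient library than in the wildtype library.

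Promoter sequences, from 250 bases before to 50 bases after the annotated start, were found in RefSeq's table for GRCm38.p6 for 29 of the 35 genes and not for H19, Peg10, Sgce, Cdkn1c, Impact and Rtl1. Imprint marks made of DNA methylation sit on CG dinucleotides, and the CG content of each window was counted. The windows were taken at annotated starts and were not matched to imprint control regions. The median over the 29 was 13 CG per 300 bases, beside 14 over 15254 promoters of genes in the table. At least 20 were held by 9 of the 29 (31.0%), beside 37.9% of all. The motif TATAAA, searched on both strands, was in 7 of the 29, beside 12.9% of all. Sequences are printed for 4 paternally expressed genes, Peg3, Dlk1, Mest and Plagl1. Peg3, Dlk1 and Plagl1 fell in both genotypes, and Mest peaked at day 7. Plagl1 and Peg3 both had the higher wildtype library at day 7 and day 14. Their Ezh2-deficient to wildtype ratios on those days were 0.565 and 0.594 for Plagl1 and 0.894 and 0.823 for Peg3. In the order Peg3, Dlk1, Mest and Plagl1, the sequences lie at chr7:6730370-6730669 (minus strand), chr12:109452573-109452872, chr6:30733256-30733555 and chr10:13090582-13090881 (all plus), and hold 13, 9, 8 and 26 CG dinucleotides, which are in capitals. Methylation was not measured in these libraries.
Peg3: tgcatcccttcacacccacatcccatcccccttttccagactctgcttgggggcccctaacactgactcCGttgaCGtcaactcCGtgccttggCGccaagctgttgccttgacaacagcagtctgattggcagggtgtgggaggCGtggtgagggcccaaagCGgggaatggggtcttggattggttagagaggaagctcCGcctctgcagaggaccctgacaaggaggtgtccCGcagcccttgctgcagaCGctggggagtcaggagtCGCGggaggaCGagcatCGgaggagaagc
Dlk1: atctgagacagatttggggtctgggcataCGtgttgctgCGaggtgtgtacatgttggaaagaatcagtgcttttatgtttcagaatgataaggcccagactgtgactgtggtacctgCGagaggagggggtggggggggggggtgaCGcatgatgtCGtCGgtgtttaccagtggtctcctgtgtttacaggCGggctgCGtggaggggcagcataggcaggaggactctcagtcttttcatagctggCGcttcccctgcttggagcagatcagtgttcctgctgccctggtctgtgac
Mest: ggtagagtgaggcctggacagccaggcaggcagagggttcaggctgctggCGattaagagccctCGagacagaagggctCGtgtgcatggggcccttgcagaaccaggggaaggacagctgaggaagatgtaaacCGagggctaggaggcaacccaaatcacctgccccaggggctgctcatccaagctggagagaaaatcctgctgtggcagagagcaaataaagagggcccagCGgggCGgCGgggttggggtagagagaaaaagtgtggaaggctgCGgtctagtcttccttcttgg
Plagl1: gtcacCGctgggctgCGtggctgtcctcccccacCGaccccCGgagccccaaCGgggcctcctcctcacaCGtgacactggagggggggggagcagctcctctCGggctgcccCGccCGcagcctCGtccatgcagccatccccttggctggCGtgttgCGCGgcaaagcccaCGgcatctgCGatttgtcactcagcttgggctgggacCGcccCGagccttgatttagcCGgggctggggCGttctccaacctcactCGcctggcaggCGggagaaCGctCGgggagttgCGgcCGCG

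The genotype comparison asked whether imprinted genes differed between Ezh2-deficient and wildtype cultures over the 3 days. Ezh2 RNA itself was at Ezh2-deficient to wildtype ratios of 0.595, 0.573 and 0.630. Ezh2 protein and methylation of histone H3 were not measured in these libraries, so how far Ezh2 function was lost is not shown. None of the 34 passed with edgeR, which called 2 of 16280 genes (0.0123%). By unadjusted p under 0.05, 6 of the 34 were reached, against a background of 13.2%. These were Nap1l5 (1.13 ± 0.33 SE), Dio3 (0.81 ± 0.29) and Slc38a4 (0.58 ± 0.19), with positive log2 fold changes, and Meg3 (-0.31 ± 0.11), Rian (-0.53 ± 0.14) and Rasgrf1 (-0.79 ± 0.29), with negative ones; their edgeR adjusted p-values ran from 0.254 to 0.353. DESeq2 called 1 of the 34, Rian (-0.52 ± 0.16 SE, adjusted p = 0.0346), beside 3.73% of all genes, and limma-voom called 0, with 7 at an unadjusted p under 0.05, where 14.8% of all genes were. The Ezh2-deficient to wildtype CPM ratio of Rian was 0.887, 0.67 and 0.554, and that of Meg3 was 0.945, 0.711 and 0.775. Dlk1, on the opposite parental copy of the same domain, had ratios of 1.39, 1.28 and 0.941, and did not pass.

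Leaving out the day 3 pair of libraries moved this result. Then 4 of the 34 passed with edgeR, where 863 of 15808 genes (5.46%) did. A fit without a day's pair leaves fewer than the 2 residual degrees of freedom of the full fit, so its p-values are less firm. Rian (log2 fold change -0.71, adjusted p = 0.0213), Plagl1 (-0.79, adjusted p = 0.0137) and Cdkn1c (-0.62, adjusted p = 0.0271) were lower in Ezh2-deficient cultures, and Dio3 (1.13, adjusted p = 0.0404) was higher. Without the day 7 pair or without the day 14 pair 0 passed with edgeR, with 2 and 5 at an unadjusted p under 0.05, where 5.26% and 10.0% of all genes were. The SE of the log2 genotype difference among the 31 members with a mean of at least 1 CPM ran from 0.07 to 0.29.

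The change of the genotype difference with day was fitted as a slope of the log2 ratio per doubling of day. In that fit 0 of the 34 passed with edgeR, beside 0.614% of all genes, and 12 had a falling ratio at an unadjusted p under 0.05, beside 8.30% of all. The 12 were Dlk1, Rian, Peg3, Peg10, Mest, Plagl1, Magel2, Cdkn1c, Igf2r, Impact, Asb4 and Rtl1, of both parental classes, and Zrsr1 had a rising ratio. DESeq2 called 4 members, beside 2.10% of all genes, and limma-voom called 0. Peg10 had Ezh2-deficient to wildtype ratios of 2.14, 1.08 and 0.881 and a slope of -0.58 ± 0.13 SE (DESeq2 adjusted p = 0.00117, edgeR 0.0776). Mest had ratios of 1.96, 1.4 and 0.893 and a slope of -0.50 ± 0.12 SE (DESeq2 adjusted p = 0.00337, edgeR 0.084). Both were higher in the Ezh2-deficient library at day 3 and slightly lower at day 14. Cdkn1c had ratios of 1.61, 0.606 and 0.701 and a slope of -0.56 ± 0.17 SE (DESeq2 adjusted p = 0.0361, edgeR 0.277). Plagl1 had ratios of 1.22, 0.565 and 0.594 and a slope of -0.48 ± 0.15 SE (DESeq2 adjusted p = 0.0471, edgeR 0.24). These 2 were higher in the Ezh2-deficient library at day 3 and lower at both later days. The slope fit leaves 1 residual degree of freedom.

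Summed over the 22 paternally expressed genes, levels were 5423, 4375 and 1811 CPM in Ezh2-deficient cultures, against 4052, 4102 and 2168 CPM in wildtype cultures. Over the 12 maternally expressed genes they were 16976, 8298 and 3905 CPM in Ezh2-deficient cultures, against 15609, 8501 and 3897 CPM in wildtype cultures, and without H19 they were 4038, 2693 and 1444 CPM in Ezh2-deficient cultures, against 3787, 3360.0 and 1751 CPM in wildtype cultures. Marker sums of the cell cycle and of other cell types also stood apart between the genotypes. Cell cycle markers (6 of 6 in the table) summed to 339, 703 and 293 CPM in Ezh2-deficient cultures, against 268, 1108 and 731 CPM in wildtype cultures, higher at day 3 and lower at both later days in the Ezh2-deficient libraries. Smooth muscle markers (5 of 5, none at 0) summed to 169.95, 416 and 214 CPM in Ezh2-deficient cultures, against 60.4, 289.7 and 202 CPM in wildtype cultures, with the ratio farthest from 1 at day 3. Fibroblast and mesenchyme markers (6 of 6, none at 0) summed to 1942, 8043 and 8707 CPM in Ezh2-deficient cultures, against 1749, 6614 and 10611 CPM in wildtype cultures, higher at day 3 and day 7 and lower at day 14 in the Ezh2-deficient libraries. Adipocyte markers (5 of 5, with Lep at 0 in the wildtype day 3 library) summed to 71.1, 315 and 114 CPM in Ezh2-deficient cultures, against 12.6, 157 and 57.8 CPM in wildtype cultures. Skeletal muscle markers (5 of 5) summed to 5.38, 1.55 and 0.657 CPM in Ezh2-deficient cultures, against 1.94, 1.13 and 0.95 CPM in wildtype cultures, and Myod1, Myog and Ckm were each at 0 in at least 1 library. The cartilage sums given above, mostly Col2a1, were lower in the Ezh2-deficient library on all 3 days, and the bone sums higher on all 3. Comp was higher in the Ezh2-deficient library at day 3 and day 7 (ratios 1.24 and 1.23), and Matn1 at day 3 (ratio 1.14). The other cartilage markers were lower on all 3 days. The part of these marker levels in the slopes of the imprinted genes was not tested.

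**Figure D4:**
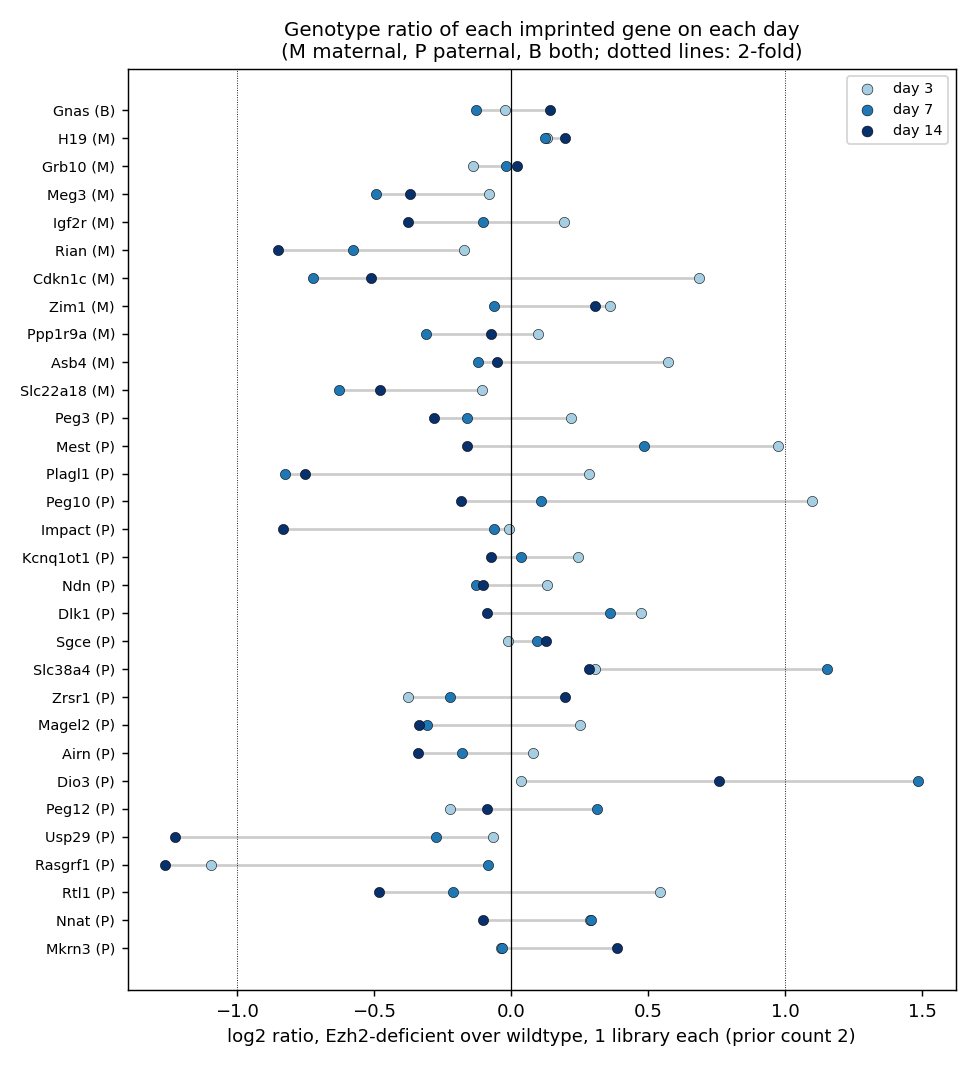
Log2 ratio of the Ezh2-deficient to the wildtype library (x axis, prior count 2) on day 3, day 7 and day 14 for the 31 imprinted genes with a mean of at least 1 CPM, each point 1 pair of libraries and dotted lines at 2-fold. Peg10, Mest, Cdkn1c and Plagl1 have their day 3 point right of 0 and their day 14 point left of it, as do further members such as Dlk1, Peg3 and Igf2r. The 3 points of Rian and Meg3 are all left of 0.

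Each day held 1 pair of libraries, which allows no test of that day alone, and intervals cover counting error only. A gene was counted where the higher library had at least 1 CPM, the pair was at least 2-fold apart and the exact 95% counting interval of the ratio left out 1. At day 3, 31 members could be counted and 2 were higher in the Ezh2-deficient library, where 1.81% of all genes were higher and 0.548% lower. They were Peg10 with a ratio of 2.14 (95% counting interval 2.1 to 2.18) and Nap1l5 with 2.47 (95% counting interval 1.31 to 4.93), and 0 were lower. Herc3, whose entry spans that of Nap1l5, also met the rule at day 3, with a ratio of 2.84 (95% counting interval 2.16 to 3.76). Whether reads of Herc3 entered the count of Nap1l5 was not tested. At day 7, 2 of 31 were higher, Dio3 with 2.81 (95% counting interval 2.3 to 3.45) and Slc38a4 with 2.22 (95% counting interval 2.06 to 2.4), and 0 were lower, where 2.51% of all genes were higher and 1.68% lower. At day 14, 2 of 29 were lower, Rasgrf1 with 0.415 (95% counting interval 0.328 to 0.522) and Usp29 with 0.415 (95% counting interval 0.216 to 0.765), and 0 were higher, where 2.58% were higher and 3.32% lower. All 6 are paternally expressed, as were 20, 20 and 18 of the members that could be counted on the 3 days. Closest to the 2-fold line from inside 2-fold were Mest at day 3, with a ratio of 1.96 (95% counting interval 1.92 to 2.01), and, at day 14, Rian with 0.554 (95% counting interval 0.531 to 0.578) and Impact with 0.561 (95% counting interval 0.532 to 0.593).

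Of 36 further imprinted or neighbouring genes, 35 were in the table and 31 were tested. At day 14, 9 were higher and 7 lower than at day 3 (edgeR), where 23.2% of all genes were higher and 22.4% lower, so the count is near the background. Igf2, the paternally expressed growth factor beside H19, measured 12932, 4661 and 1096 CPM in Ezh2-deficient cultures, against 13777, 6109.6 and 1403 CPM in wildtype cultures (-3.43 ± 0.19 SE, edgeR adjusted p = 0.000207). The RPKM ratio of H19 to Igf2 was 1.62, 1.95 and 3.64 in Ezh2-deficient cultures, against 1.39, 1.36 and 2.48 in wildtype cultures, with the Ezh2-deficient library the higher on all 3 days. Mirg (-2.06), the next long non-coding RNA after Rian, Zdbf2 (-2.86), Cobl (-2.29), Copg2 (-0.52), Commd1 (-0.46) and Casd1 (-0.34) also fell on the log2 scale. Cd81 (0.52), Osbpl5 (0.54), Pon2 (0.70), Pon3 (0.86), Inpp5f (0.38), Peg13 (1.47), Dlx5 (1.56) and Tfpi2 (2.33) rose, and Slc22a3, at 0.0807 CPM in the Ezh2-deficient and 0 CPM in the wildtype day 3 library, also passed as higher. Dcn, the proteoglycan decorin, measured 529.9, 763 and 546 CPM in Ezh2-deficient cultures, against 589.8, 1049 and 821 CPM in wildtype cultures, and H13, Nap1l4 and Ube3a, at 138 to 174, 96.7 to 104 and 74.2 to 84.4 CPM, did not pass.

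For genotype, 0 of these 31 passed with edgeR, with 5 at an unadjusted p under 0.05 (13.2% of all genes), and DESeq2 called 2 (3.73% of all genes). Klf14, a maternally expressed transcription factor near Mest, measured 6.4, 11.8 and 5.00 CPM in Ezh2-deficient cultures, against 2.61, 4.03 and 2.36 CPM in wildtype cultures. It was more than 2-fold higher in the Ezh2-deficient library on every day (log2 fold change 1.32 ± 0.16 SE, edgeR adjusted p = 0.0842; DESeq2 adjusted p = 6.16e-08). Pon2, an antioxidant lactonase near Peg10, measured 22.6, 30.6 and 35.6 CPM in Ezh2-deficient cultures, against 28.8, 43.8 and 48.1 CPM in wildtype cultures and was lower on every day (-0.44 ± 0.08 SE, edgeR adjusted p = 0.127; DESeq2 adjusted p = 0.0115).

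Of 18 genes that set or maintain imprints, all were tested and 0 differed by genotype with edgeR or DESeq2, which called 0.0123% and 3.73% of all genes. In each, 1 of the 18 was at an unadjusted p under 0.05, where 13.2% of all genes were by edgeR and 12.2% by DESeq2. Between day 14 and day 3, Kdm1b (-2.05) and Dnmt3l (-1.38) fell and Ehmt2 (0.47), Ezh1 (0.35) and Dppa3 (2.95) rose on the log2 scale, beside 22.4% of all genes lower and 23.2% higher. The call of Dnmt3l (edgeR adjusted p = 0.0484) was lost with DESeq2 (adjusted p = 0.06) and limma-voom (adjusted p = 0.0514). Uhrf1, which brings the maintenance methyltransferase Dnmt1 to newly copied DNA, measured 32.7, 55.5 and 20.5 CPM in Ezh2-deficient cultures, against 23.6, 75.8 and 43.4 CPM in wildtype cultures. Its Ezh2-deficient to wildtype ratio fell with day (slope per doubling -0.70 ± 0.07 SE, edgeR adjusted p = 0.044). Uhrf1 was the only 1 of the 18 to pass for slope, beside 0.614% of all genes, in a fit with 1 residual degree of freedom. Dnmt1 itself measured 90.8, 126 and 74.1 CPM in Ezh2-deficient cultures, against 82.0, 152 and 105 CPM in wildtype cultures and did not pass. The cell cycle marker sums given above were also higher at day 3 and lower at day 7 and day 14 in the Ezh2-deficient libraries.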

How the data were processed

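RNA of 6 micromass libraries was sequenced. The authors deposited whole-number read counts per gene, not normalized, and RPKM values scaled by coding length, per the file headers. CASAVA, TopHat, HTSeq and the mm10 build are named in the submitters' processing notes; strandedness and annotation are not given in the sources used here. Every count was even, so 2 counts were taken as 1 fragment. Columns without a sample numbered 0.

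Tests used R 4.3.3 with edgeR 4.0.16 (quasi-likelihood F test, TMM factors, genes kept by filterByExpr at min.count 10 grouped by day, two-sided, Benjamini-Hochberg over all 16280 genes, threshold 0.05). Genotype was fitted with day as a factor, leaving 2 residual degrees of freedom, so days stood in for replicates and, for day 14 against day 3, genotypes did. Fits with a day's pair left out have fewer residual degrees of freedom. SE is the absolute log2 fold change over the square root of F. DESeq2 1.42.0 and limma-voom (limma 3.58.1) were alternatives, with RLE factors, total counts only, no filter and each day's pair left out. On simulated counts of the genotype difference in 16280 genes, 200 of 200 genes changed 4-fold were recovered by edgeR, with 9 false calls. Other folds were not tested. In the deposited counts the bone marker Ibsp did not pass with edgeR (log2 fold change 2.13 ± 0.19 SE, adjusted p = 0.0674). Its Ezh2-deficient to wildtype ratios were 3.89, 6.00 and 3.63 at days 3, 7 and 14. The recovery therefore does not give the size of difference that edgeR could call in these libraries. RPKM entered no test. Depth sets floors of 3 fragments, 0.0763 to 0.114 CPM, covering counting error only.

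The members, lists and tests were chosen with earlier results of these data known. Members with a mean of at least 1 CPM (31 of 35) are given in each library, and the others by range. Of the further imprinted or neighbouring genes, the 6 highest and those that passed are named, and of the maintenance genes those that passed. Klf14, Pon2 and Dnmt1 were named after their values were seen, the first pair because DESeq2 called them. The day 3 ratio of Herc3 was also added after its values were seen, for its overlap with Nap1l5.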

Additional observations from a re-analysis of the deposited data

Results flagged for a closer look

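For 4 imprinted genes the genotype difference itself differed between days by DESeq2's test of its slope per doubling of day, although not by edgeR's. The slopes were -0.582 for Peg10, -0.557 for Cdkn1c, -0.504 for Mest and -0.479 for Plagl1, on the log2 scale, with DESeq2 adjusted p-values of 0.00117, 0.0361, 0.00337 and 0.0471. In each of these genes the Ezh2-deficient library was above the wildtype library at day 3 and below it at day 14, as in further members such as Dlk1, Peg3 and Igf2r. At day 7 Peg10 and Mest were still above wildtype, with ratios of 1.08 and 1.4, while Cdkn1c and Plagl1 were below, with 0.606 and 0.565. Among the marker sums, cell cycle (339, 703 and 293 CPM in Ezh2-deficient cultures, against 268, 1108 and 731 CPM in wildtype cultures), fibroblast and mesenchyme (1942, 8043 and 8707 CPM in Ezh2-deficient cultures, against 1749, 6614 and 10611 CPM in wildtype cultures) and skeletal muscle (5.38, 1.55 and 0.657 CPM in Ezh2-deficient cultures, against 1.94, 1.13 and 0.95 CPM in wildtype cultures) were also above wildtype at day 3 and below it at day 14. The smooth muscle sums (169.95, 416 and 214 CPM in Ezh2-deficient cultures, against 60.4, 289.7 and 202 CPM in wildtype cultures) were above wildtype on all 3 days, by the smallest ratio at day 14. Of the fibroblast and mesenchyme markers Col3a1 alone was above wildtype at day 3 and below it at day 14. The part of the marker sums in the slopes was not tested. Each day has 1 library per genotype, so a difference between single cultures and a difference between days cannot be told apart.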

How the results depend on the processing

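Day 14 against day 3 was stable: 22 to 25 of the 34 imprinted genes passed under the alternatives run. With total counts only, which moved the median of all genes to 0.0525 on the log2 scale, Sgce no longer passed (-0.28) and Airn changed sign (0.00906). The genotype count over all genes was 2 with edgeR and depended on the setting: 9 with RLE factors, 0 with total counts only, 9 with no filter, 607 with DESeq2, 40 with limma-voom and 0 to 863 when a day's pair was left out. Among imprinted genes it was 0 with edgeR, 1 with DESeq2 and 0 to 4 when a pair was left out. The slope with day was called for 100 genes, 270 with total counts only, 247 with no filter and 342 with DESeq2, of which 1, 2 and 4 were imprinted genes. In single days a 1.5-fold limit gave 1062, 1635 and 1929 genes and 4, 5 and 6 imprinted genes at days 3, 7 and 14. Without a minimum CPM, 621 genes were counted at day 3, and 926 genes and 4 imprinted genes at day 7. With total counts only, 1 imprinted gene was counted at day 3.

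None of the following genes passed for genotype in the fit with all 6 libraries, and their signs changed with the setting; the cause was not tested. Leaving out a day's pair gave log2 ranges of -0.22 to 0.0339 for Peg3, -0.0339 to 0.61 for Peg10, -0.0731 to 0.000695 for Grb10, -0.12 to 0.0119 for Ndn, -0.32 to 0.0651 for Magel2, -0.16 to 0.12 for Peg12, -0.62 to 0.0831 for Cdkn1c, -0.0186 to 0.15 for Kcnq1ot1, -0.0694 to 0.0545 for Gnas, -0.24 to 0.052 for Igf2r, -0.0888 to 0.27 for Asb4, -0.20 to 0.011 for Ppp1r9a, -0.0299 to 0.16 for Mkrn3 and -0.34 to 0.17 for Rtl1. By limma-voom Magel2 was at 0.11 and Rtl1 at 0.0586. Peg12 was at -0.017 with total counts only. Gnas was at 0.0101 with RLE factors, 0.0101 with DESeq2 and 0.00209 with limma-voom.

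The labels give no replicate numbers; the genotype fit pairs the libraries by day, since day is a term of it. Counts halved to fragments, chosen after seeing the data and run with edgeR alone, changed no count of members by more than 1.5 times. For genotype and slope this says little, since edgeR called 0 members there on the full counts. DESeq2 and limma-voom were not rerun on halved counts, so the DESeq2 calls of members rest on the counts as deposited. With 1 library per genotype and day, differences within a day have no replicate check.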
